A study of Morella rubra with 12 samples.

Results

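A set of 132 genes of the fruit of Chinese bayberry (Morella rubra) held its transcript level in a pale strain from 55 to 70 days after flowering and was lower there by 85 days, when red fruit of another cultivar was at a like level. They are 132 of the 119701 assembled genes whose levels were deposited. They were chosen from mean FPKM + 1 of the 4 groups, where FPKM counts the sequenced fragments of a gene in relation to its length and to all fragments of the library. A gene was taken if this value was at least 11 at 70 days, if the ratio of 70 to 55 days lay between 0.67 and 1.5, and if the ratio of 85 to 70 days was at most 0.4. Its ratio of red to pale ripe fruit had to lie above 0.5 and below 2, and its highest pale library at 85 days below its lowest at 70 days. All 12 libraries entered this choice, so the levels below describe what was chosen and carry no test.

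Bayberry is a tree grown for a juicy stone fruit. While such a fruit ripens it softens, gains sugar, loses acid and, in dark cultivars, fills with anthocyanin, the red to purple pigment of many fruits. Programs of the young fruit such as growth, photosynthesis and the making of astringent tannins commonly give way over the same weeks, and a transcript can be lost early or only near the end of this course.

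The pale fruits came from the Baidongkui strain (BDK, colour label pink) at 55, 70 and 85 days, and the red ones from the cultivar Dongkui (DK, colour label black) at 85 days. There were 3 libraries in each of the 4 groups. The labels name no tree or batch for a library, so replicates may be technical, and they give no genotype or treatment beyond the strain. The deposited files list gene IDs without names, so what the genes encode, and markers of the fruit tissue, were not analysed here.

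The 12 libraries listed 32084 to 48737 genes above 0, and their summed FPKM ran from 817744 to 1219278. Read counts are not in these files, so depth is unknown. A split that crosses the groups ran through the libraries: 876 genes were above 0 in a first set of 6 libraries (the 3 of BDK at 55 days, replicate 1 at 70 days, replicates 1 and 2 at 85 days) but at 0 in the second set, which is formed by the other 6, and 120 genes showed the reverse. None of the 132 genes could have either pattern (0 of 132). The choice put all their 70-day libraries above 0, and both sets hold such libraries, so nothing is read from this count.

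The genes covered a wide range of levels. At 70 days the mean of 3 of them was 1000 FPKM or more, 22 lay between 100 and 1000, 38 between 30 and 100, and 69 between 10 and 30. Their median level in a library was 28.5 ± 0.98 FPKM at 55 days, 29.2 ± 0.98 at 70 days, 7.28 ± 0.87 at 85 days in BDK and 9.01 ± 0.24 at 85 days in DK (SD, n = 3). In bulk tissue, fewer cells of a type and less RNA per cell cannot be told apart.

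**Figure D1:**
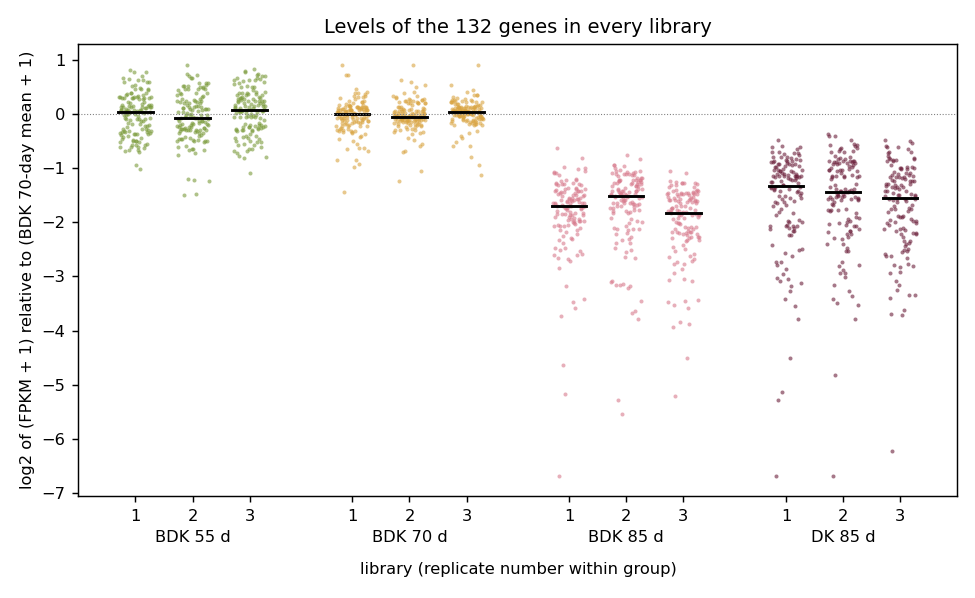
Each point is 1 of the 132 genes in 1 library, as log2 of its FPKM + 1 relative to its own BDK mean + 1 at 70 days; black bars are medians over the genes, and numbers on the x axis are replicates. The medians of the 6 libraries at 85 days, between 0.281 and 0.398 of the 70-day level before the log, lie below those of the 6 earlier libraries, between 0.951 and 1.05.

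Gene c57326_g1 was the most abundant of the set and among the most abundant of the fruit, ranking 5 among all genes at 55 days and 4 at 70 days. It was at 24439, 23214 and 30404 FPKM in the 3 libraries at 55 days and at 16822, 24868 and 17433 at 70 days. At 85 days it was at 6307, 5885 and 7071 in BDK and at 4707, 3736 and 4504 in DK. The libraries at 55 and 70 days overlapped, all 6 at 85 days lay below them, and the 3 DK libraries lay below the 3 of BDK. Even so it still ranked 9 in ripe BDK and 13 in ripe DK.

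Gene c9191_g1, rank 8 at 55 days and 10 at 70 days, dropped further. Its libraries were at 11530.1, 11830.2 and 13688 FPKM at 55 days and at 7576, 9544 and 10900.5 at 70 days. At 85 days they were at 1524, 1085 and 845 in BDK, 0.123 of the 70-day mean, and at 2143, 2058 and 1549 in DK. Here the strains took the opposite order to c57326_g1, with each DK library above each BDK library, and the gene ranked 60 in ripe BDK and 35 in ripe DK.

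Together the 132 genes made up 4.41% ± 0.07 of the summed FPKM at 55 days and 3.96% ± 0.45 at 70 days. In ripe fruit they made up 1.32% ± 0.02 in BDK and 1.24% ± 0.02 in DK (SD, n = 3). These shares mostly follow c57326_g1 and c9191_g1, which held 78.4% ± 1.84 of the set's FPKM at 55 days, 71.4% ± 3.82 at 70 days, 67.1% ± 2.85 in ripe BDK and 57.4% ± 2.06 in ripe DK. The other 130 genes went from 0.952% ± 0.07 through 1.12% ± 0.08 to 0.434% ± 0.04 of the summed FPKM in BDK and were at 0.530% ± 0.02 in DK.

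**Figure D2:**
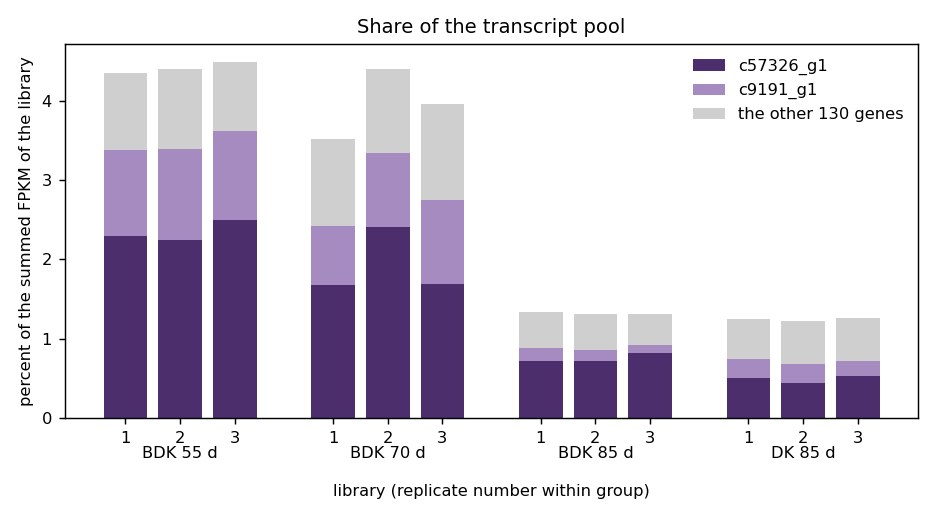
Bars give the percent of each library's summed FPKM held by the 132 genes, stacked as c57326_g1, c9191_g1 and the other 130, with replicate numbers on the x axis. Every library at 85 days holds between 1.23% and 1.34%, against 3.51% to 4.49% at 55 and 70 days.

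The next 6 genes by level at 70 days fall between 445 and 2580.03 FPKM. Gene c51902_g1 was at 1697, 2217 and 1606 FPKM at 55 days and higher in each library at 70 days, at 2439.7, 2289 and 3011. It was then at 1230.1, 923 and 888 in ripe BDK and 1001, 753 and 964 in ripe DK, which overlap. Gene c45672_g2 took the same course at a lower level, from 383 ± 21.5 through 552 ± 111 to 145 ± 14.2 FPKM in BDK (SD, n = 3). Its DK libraries, at 215, 186 and 191, all lay above the BDK ones, at 130.2, 145 and 159.

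Gene c56156_g3 showed the plateau and fall with little spread. It was at 479, 427 and 497 FPKM at 55 days, 496, 448 and 431 at 70 days, 169, 181 and 179 in ripe BDK and 192, 223.5 and 187 in ripe DK. Both ripe groups lay far below the BDK plateau, and DK above BDK by a ratio of 1.14. Gene c49950_g1 fell to 0.139 of its 70-day level, from 469.98, 462 and 404 FPKM to 79.3, 51.5 and 52.5, with DK at 82.7, 108 and 71.8.

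Gene c52890_g2 was higher in ripe red than in ripe pale fruit. It was at 468, 460.3 and 487 FPKM at 55 days, 449, 416 and 476 at 70 days and 139.7, 209 and 149 in ripe BDK. The DK libraries, at 292, 336 and 296, lay between the 70-day and the 85-day BDK libraries with no overlap on either side. Gene c37765_g1 was less clear, because its 70-day libraries spread from 472 through 852 to 1222 FPKM. Its DK libraries, at 459, 654 and 603, reached into that range, while ripe BDK was at 396, 299.6 and 309.

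**Figure D3:**
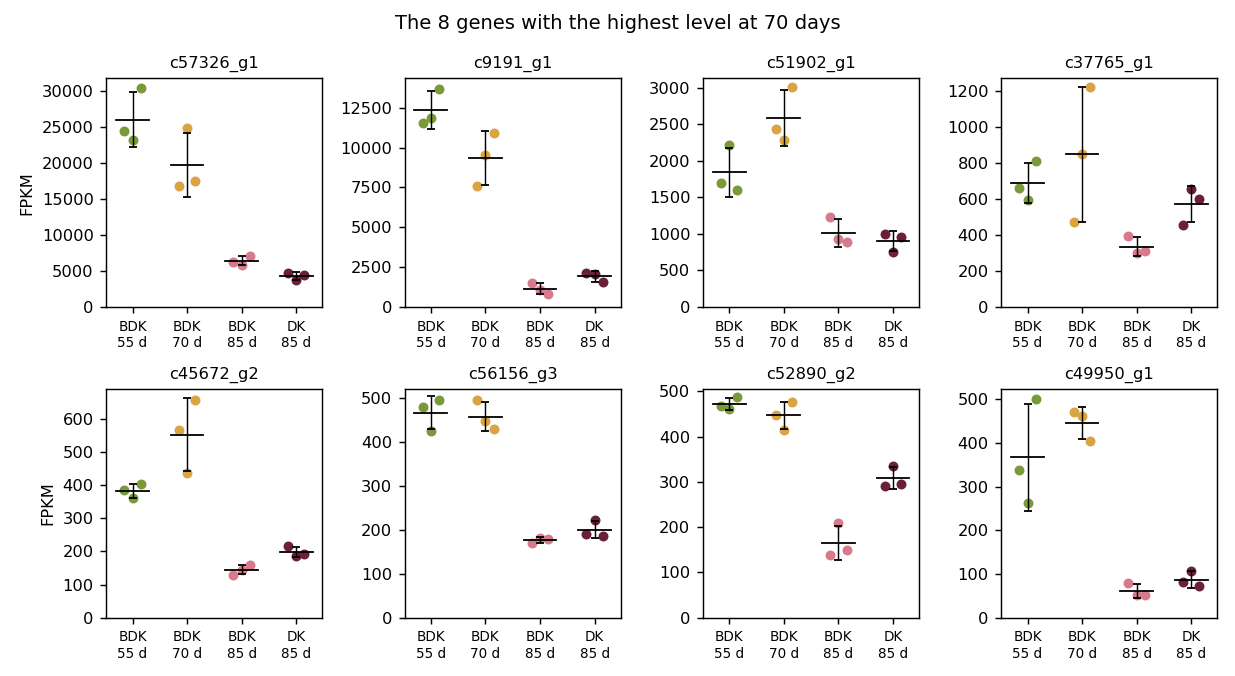
FPKM of the 8 genes with the highest mean at 70 days, 1 point per library, with the group mean (bar) and SD (error bar, n = 3), each panel on its own linear axis from 0. In all 8 the BDK libraries at 85 days lie below those at 70 days, which the choice of genes fixed, and in c52890_g2 the 3 DK libraries sit between 292 and 336 FPKM, above ripe BDK and below 70-day BDK.

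For most of the set the last step was a partial loss. The ratio of 85 to 70 days in BDK had a median of 0.326 and quartiles of 0.2503 and 0.373, against a median of 0.832 for the 11136 genes that reached the same level minimum at 70 days. Only 33 genes were at or below a ratio of 0.25 and 6 at or below 0.1, while 60 lay between 1/3 and the limit of 0.4. Among the genes just inside that limit were c54362_g2, c45124_g1 and c55581_g2, at 0.3998, 0.398 and 0.398. Those just outside it that met every other criterion were c31959_g3, c55854_g6 and c56235_g2, at 0.401, 0.403 and 0.404, so values ran on without a gap across this limit. With FPKM divided by trimmed-mean factors, which lift ripe libraries relative to young ones, 87 genes met the criteria, 72 of them among the 132. The median ratio of the 132 was then 0.363, and that of the 11136 genes 0.936.

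The deepest losses came close to shutdown. Gene c56250_g1 was at 10.8, 10.4 and 16.4 FPKM at 55 days, 14.3, 13.1 and 4.31 at 70 days, and then at 0.08, 0.06 and 0.07 in ripe BDK, with ripe DK at 0.33, 0 and 0.14. Gene c44789_g1 was at 23.1, 15.5 and 16.8 FPKM at 70 days and at 0.63, 0.53 and 0.33 in ripe BDK. Its DK libraries, at 2.18, 1.01 and 2.69, were all higher than the BDK ones and still far below the BDK plateau.

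Gene c38485_g1 had an even plateau and a deep loss, at 34.8, 33.6 and 38.4 FPKM at 55 days, 44.5, 38.1 and 37.3 at 70 days, 3.56, 3.64 and 1.86 in ripe BDK and 4.29, 4.36 and 3.30 in ripe DK. The lowest ratio of all, 0.043, belonged to c72903_g1, whose plateau was uneven, at 26.7, 115 and 80.6 FPKM at 70 days, before 4.62, 0.93 and 1.04 in ripe BDK and 0.92, 1.67 and 0 in ripe DK. The other 4 of the 8 steepest, c56100_g3, c57345_g1, c54506_g5 and c4584_g1, also varied between replicates. The first of them was at 191, 42.4 and 70.2 FPKM at 70 days and at 0, 10.4 and 5.66 in ripe BDK, and the last at 0.29, 0 and 11.7 in ripe BDK.

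In limma's model over all 23074 genes with at least 1 FPKM in 3 libraries, 131 of the 132 genes were called lower at 85 than at 70 days in BDK (adjusted p below 0.05), where 19.6% of all genes tested were called lower. All 132 had libraries that do not overlap, as the choice required, against 33.2% of all genes. Because the choice used this contrast, nothing is read from these counts. The gene without a call was c5199_g1, at 7.88, 5.66 and 24.9 FPKM at 70 days and 4.12, 0 and 3.54 at 85 days.

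The choice asked for BDK libraries at 85 days all below those at 70 days, so within each library set the values had to be lower too, and only the size of the ratio was free. The median ratio was 0.339 in the first set, from 1 library at 70 days and 2 at 85, with 101 genes at or below 0.4. In the second set it was 0.279, from 2 libraries and 1, with 119 genes at or below 0.4. With a model term for the set, 130 of the 132 were called lower, against 4208 of all 23074 genes tested. The choice used this contrast, so nothing is read from this count either.

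The plateau before the fall was flat on average but not for each gene. The ratio of 70 to 55 days had a median of 0.972 over the set, with quartiles of 0.838 and 1.22. Whether more genes rose or fell slightly depended on the scaling, with 58 of 132 above 1 in FPKM as deposited and 76 after trimmed-mean scaling (median 1.04). Genes of the same level minimum had a median ratio of 1.17, or 1.26 after scaling.

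In this first step 24 of the 132 genes were called, 21 higher and 3 lower at 70 days, against 50.8% of all genes tested. Without scaling factors 14 were called higher and 7 lower, against 4928 and 6873 of all 23074. In FPKM as deposited, the libraries of the 2 stages did not overlap for 23 genes higher and 22 lower at 70 days. The shares of all genes were 24.8% and 34.4%. The limits of 0.67 and 1.5 on this ratio restrict all these counts. Among the called genes c54023_g1 went from 195, 210.2 and 191 FPKM to 263.5, 263.3 and 284, and c55581_g2 from 10.4, 10.2 and 10.1 to 11.8, 11.3 and 13.9. In both the later libraries were all higher than the earlier ones, by less than 1.5 times.

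Ripe red fruit was low in these genes as well, since the choice kept only genes at a like level in both strains. The highest of the 6 libraries at 85 days lay below the lowest of the 6 earlier ones for 126 of the 132 genes, and for 17.7% of the 11136 genes of the same level minimum. DK libraries all lay below the BDK 70-day libraries for 128 genes, against 34.1% of all genes tested. Limma called 125 of the 132 lower in DK than in 70-day BDK, against 17.7% of all genes. The limits of 0.4 on the last step and of 2 on DK put every DK mean below its 70-day BDK mean. Nothing is therefore read from these counts. The median ratio of DK to 70-day BDK was 0.370 and the highest 0.690.

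The 4 genes whose DK libraries overlapped those of BDK at 70 days were c37765_g1, c50439_g3, c5199_g1 and c37847_g1. For c50439_g3 the values were 14.1, 8.53 and 17.3 FPKM at 70 days, 2.64, 5.27 and 4.62 in ripe BDK and 8.12, 8.76 and 7.82 in ripe DK. It is thus the second library at 70 days that reaches the DK range, and DK lay above ripe BDK throughout. For c37847_g1 the overlap came from 1 low library at 70 days, at 5.44 FPKM beside 15.1 and 13.9, and DK was at 6.34, 2.52 and 4.65.

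Inside the window from 0.5 to 2, most genes were somewhat higher in DK than in ripe BDK. The ratio had a median of 1.22 and quartiles of 0.966 and 1.43, and it was above 1 for 94 of the 132 genes (71.2%). Among the 11136 genes of the same level minimum the median was 1.00, also under 3 other scalings, and 45.1% were above 1. A gene undetected in both ripe groups has a ratio of exactly 1 and counts as not above it. Such genes stayed among the 11136, while the lowest ripe BDK mean in the set was 0.07 FPKM. The shares of 71.2% and 45.1% are thus not from like genes. The choice favoured genes with low ripe BDK means, and those same libraries are the base of this ratio, so the 2 comparisons share them. The count of genes above 1 was 92 to 95 under 3 other scalings, and 89 to 97 without any 1 of the BDK 85-day libraries. Against BDK 85-day replicates 1, 2 and 3 singly it was 94, 84 and 102, with medians of 1.28, 1.11 and 1.35, the last being also the value within the second library set.

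Limma called 21 of the 132 genes between the ripe strains, all of them higher in DK, against 6.49% of all genes called in either direction and 3.2% called higher. DK libraries all lay above BDK for 49 genes and all below for 8, against 12.2% and 12% of all genes tested. The limits on this ratio restrict these counts too. The choice also favoured genes with low ripe BDK libraries, which tips the counts towards DK higher, so nothing is read from them. The number called was unstable, and so was that over all genes, 1497 of 23074 in the main fit. It was 11 with a term for the library set (548 of 23074 genes tested). Without BDK 85-day replicate 2 it was 36 (2132 of 22498), and without BDK 85-day replicate 1 it was 10 (764 of 22440). Without DK replicate 1, 2 and 3 it was 10, 9 and 12 (639 of 22583, 664 of 22440 and 837 of 22614).

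The highest ratios of DK to BDK belonged to c9850_g1, c44789_g1, c54023_g1 and c52890_g2, at 1.99, 1.98, 1.90 and 1.85. Gene c54023_g1 was at 86.0, 85.1 and 76.6 FPKM in ripe BDK and at 165, 130.4 and 177 in ripe DK, with no overlap. Gene c9850_g1 was at 2.33, 2.62 and 1.38 in BDK and at 5.49, 6.82 and 3.26 in DK.

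At the other end were c51095_g2, c4024_g1, c7273_g1 and c52338_g1, with ratios of 0.503, 0.505, 0.525 and 0.563. Gene c4024_g1 was at 7.77, 6.42 and 11.4 FPKM in ripe BDK and at 5.68, 2.27 and 3.47 in ripe DK, again with no overlap. In c7273_g1 a single BDK library carried the difference, at 4.31 FPKM beside 0.27 and 0.86, and DK was at 0.34, 0.53 and 0.56. Gene c52338_g1 was the only one of the 132 whose BDK libraries at 85 days overlapped those at 55 days, where it was at 11.02, 3.68 and 5.33.

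Replicates of ripe BDK differed more for these genes than those of other groups. The coefficient of variation over 3 libraries had a median of 24.8% in ripe BDK, against 13.9% at 55 days, 14.8% at 70 days and 15.9% in DK. For all genes of the same level minimum it was 10.2% in ripe BDK and 8.01% to 8.97% in the other groups. Levels were not matched in these comparisons. The set's median level was 7.28 FPKM in ripe BDK against 29.2 at 70 days, while genes of that minimum kept a median ratio of 0.832. Whether the spread follows the level was not tested. Replicate 2 of ripe BDK was the highest of its group for 76 of the 132 genes (57.6%, against 38.2% of the genes of the same level minimum). Replicate 3 was the lowest for 66 of the 132, against 26.2% of the genes of that minimum. Over the 132 genes the median level relative to 70 days was 0.307, 0.348 and 0.281 in the 3 ripe BDK libraries and 0.398, 0.367 and 0.343 in DK, so that the 2 strains overlapped on this measure in FPKM as deposited. After trimmed-mean scaling the values were 0.345, 0.380 and 0.321 in ripe BDK and 0.432, 0.395 and 0.392 in DK, without overlap.

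The genes of the set were then placed among all 585 genes that met the same criteria of level, last-step ratio and separate libraries. Of these, 274 were already lower at 70 than at 55 days (ratio below 0.67), 164 were flat and 147 were higher (ratio above 1.5). Without the DK criterion the set would be the 164 flat genes, of which 132 (80.5%) had DK within the window. The share was 89.4% of those lower before (245 of 274) and 75.5% of those higher before (111 of 147). The median ratio of DK to ripe BDK was 1.34, 1.17 and 1.27 for flat, earlier lower and earlier higher genes. No test of these differences was made, as all 3 classes share their libraries with the choice.

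Of the 32 flat genes outside the window, 31 were at least 2 times higher in DK and 1 was lower. The lower one, c53558_g1, was at 612 FPKM at 70 days, 145 in ripe BDK and 40.8 in ripe DK on average. The most abundant of the 31, c48654_g1, was at 949.7, 929 and 947 FPKM at 70 days, 93.3, 299 and 236 in ripe BDK and 538, 479 and 621 in ripe DK. Both were picked here after their values were seen.

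**Figure D4:**
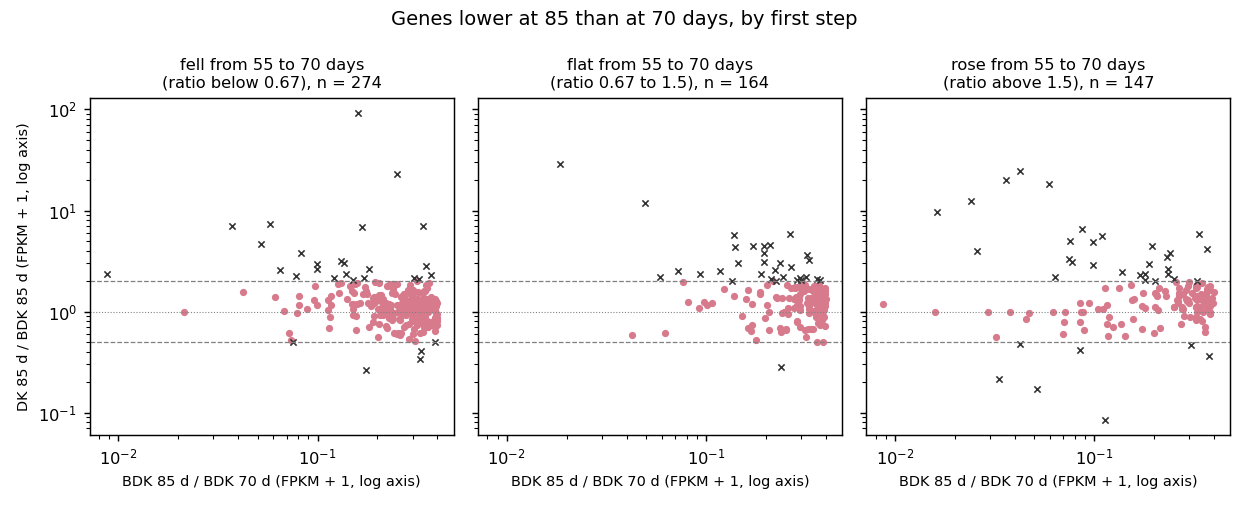
Each point is 1 of the 585 genes lower at 85 than at 70 days in BDK, by its ratio of that step (x) and its ratio of ripe DK to ripe BDK (y), both of mean FPKM + 1 on log axes; panels split them by the first step, and crosses mark genes outside the window from 0.5 to 2 (dashed). In the middle panel 31 crosses lie at or above 2 and 1 below 0.5.

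The ID of an assembled gene holds a cluster number before its gene number, and genes of 1 cluster have related sequence and may share reads, so that their separate levels are uncertain. The 132 genes came from 129 clusters, 72 of which hold a single gene. A pair of members occurred in 3 clusters, where the choice of genes fixes a like course within its limits. In cluster c57326 the ratio of 70 to 55 days was 0.757 for c57326_g1 and 1.26 for c57326_g2. Neither change was called, and for both genes the libraries of the 2 stages overlapped. In cluster c35812, c35812_g2 went from 107 ± 8.83 through 81.5 ± 13.9 to 12.5 ± 5.88 FPKM in BDK, and c35812_g1 from 34.8 ± 4.81 through 32.4 ± 8.10 to 4.06 ± 0.40 (SD, n = 3). In DK they were at 8.18 ± 2.76 and 3.54 ± 1.94. In cluster c52903, c52903_g1 was 1.93 to 3.94 times as high as c52903_g4 in every library. Gene c57326_g2 was at 20.3 ± 6.91 FPKM at 70 days, and c57326_g1 was 864 to 3461 times as high over the 12 libraries, so that a few shared reads would matter for the level of c57326_g2.

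Other genes of these clusters took varied courses. There were 60 that reached a mean of 10 FPKM in some group, of which 46 met the level minimum at 70 days. Among the 46, 6 (13.0%) had a ratio of 85 to 70 days at or below 0.4, against 20.0% of all genes of that minimum. Neither share asked for separate libraries of the 2 stages, and the 20.0% includes the members. With separate libraries as well, 585 of the 11136 genes remained. All of the 6 but c56790_g10, at 0 FPKM in replicate 1 at 70 days, were among these 585. Of the 46, 9 lay above 0.4 and below 0.67, 26 between 0.67 and 1.5, and 5 were above 1.5. Their median ratio was 0.843, beside 0.832 for all genes of the minimum. Among the 57 clusters with more than 1 gene, the FPKM summed over the cluster had a ratio of 0.4 or less in 34, and in 18 of these the members held over 95% of the 70-day sum. The summed FPKM was higher at 85 than at 70 days in 7 of the 57.

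The 3 most abundant of these other genes at 85 days show both outcomes. Gene c55991_g1 fell from 13734 FPKM at 55 days through 7945 to 1881 in BDK and was at 1663 in DK, in step with c55991_g2, a member at 69.4, 46.2, 8.38 and 7.15 FPKM. Gene c47787_g2 likewise went from 1589.9 through 1033 to 361 and was at 664 in DK, and the member c47787_g1 from 167 through 117 to 34.0 with 60.6 in DK. In c47787 the ripe DK libraries of both genes lay above the ripe BDK libraries, and in c55991 the strains overlapped for both genes.

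Gene c54362_g1 took another course than its cluster partner. It was at 79.1, 84.8 and 111 FPKM at 55 days, 561, 429 and 459 at 70 days, 335, 472 and 523 in ripe BDK and 357, 300.0 and 378 in ripe DK. The member c54362_g2 was at 104, 72.7 and 131, then 85.2, 117 and 99.1, and fell to 45.4, 47.9 and 25.3 in ripe BDK, with ripe DK at 50.5, 52.2 and 55.6. The levels of both were alike at 55 days, and c54362_g1 was by far the higher from 70 days on. A contrast picked after the values were seen was in cluster c49993, where c49993_g1 was at 24.4, 28.7 and 28.9 FPKM at 70 days and at 232, 129 and 241 in ripe BDK. Its partner c49993_g2, a member, went from 12.4, 10.2 and 17.3 to 1.46, 4.85 and 1.24, and in ripe DK the first was at 91.1 to 116 and the second at 2.40 to 2.72.

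**Figure D5:**
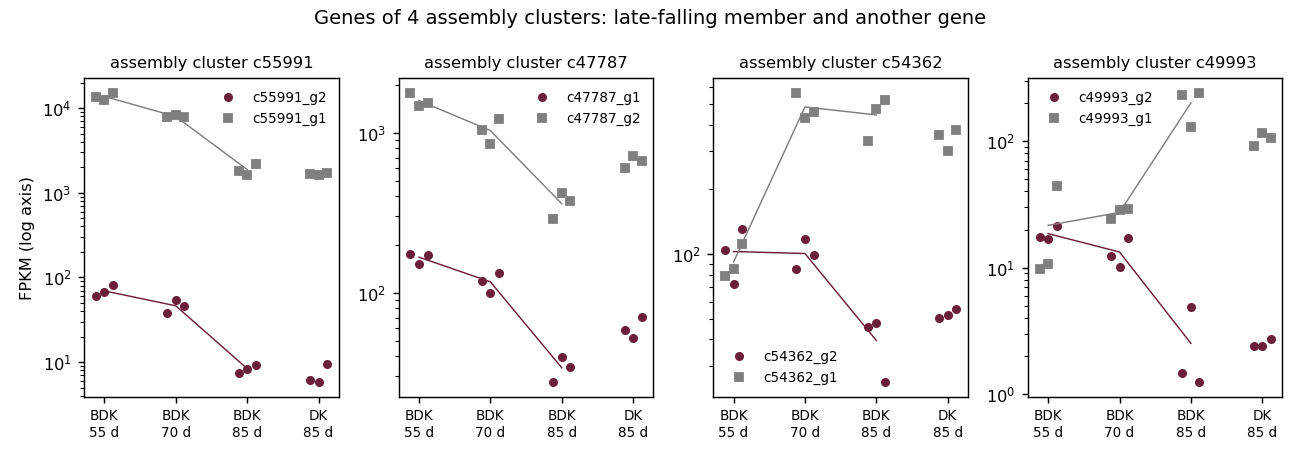
FPKM on log axes, with a different range in each panel, of a member (circles) and another gene (squares) of 4 assembly clusters, 1 point per library and lines through the BDK means. In c55991 and c47787 both genes are lower at 85 than at 70 days, in c54362 the other gene stays between 300.0 and 523 FPKM in ripe fruit, and in c49993 it is higher at 85 than at 70 days while the member is lower.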

How the data were processed

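The deposited unit is FPKM, written by the authors to 2 decimals for each gene of a library, per the file headers. How they assembled, quantified and filtered is not given in the sources used here. Groups and replicate numbers came from sample titles and days from the design text. The members, comparisons and naming rules were chosen with earlier results of these data known.

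Levels, ratios (of mean FPKM + 1) and the choice of genes use FPKM as deposited. For calls, FPKM was divided by trimmed-mean factors (0.895 to 1.14, trimming 30% of log ratios and 5% of levels at each end). Limma 3.58.1 (R 4.3.3) then took log2(FPKM + 1), a scale that shrinks the change of low genes, with variances following the level. All 12 libraries entered without covariates, for genes of at least 1 FPKM in 3 libraries. P-values were adjusted by Benjamini-Hochberg over all these genes (threshold 0.05), and reflect only the spread between these possibly technical replicates. The procedure was tested on simulated data. Libraries were checked for copies: at most 0.331% of genes above 1 FPKM in both libraries of a pair had equal values.

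Genes are named by rule: the 8 highest at 70 days, the 8 lowest ratios of 85 to 70 days, the 4 lowest and 4 highest of DK to BDK, 3 on each side of the limit of 0.4, clusters with most members, genes whose DK and 70-day BDK libraries overlap, and the 3 most abundant cluster partners. Python 3.11.15 and pandas 2.3.3 were used.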

Additional observations from a re-analysis of the deposited data

How the results depend on the processing

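The number of genes that met the criteria was 87 with trimmed-mean factors and 81 with median-of-ratios factors (the latter chosen after seeing the data), 33 with a last-step ratio of at most 0.25 and 279 with one of at most 0.5. Upper-quartile factors gave 94, pseudocounts of 0 and 5 gave 138 and 88, level minima of 6 and 21 gave 189 and 88, and leaving out 1 library gave 125 to 146, of which 102 to 131 were among the 132. Calls of the first step numbered 13 with no filter on low values (10194 of 101724 genes tested) and 17 to 29 without 1 library (9529 to 11937 genes). Calls between the ripe strains numbered 7 with no filter (349 of 101724) and 33 with a filter of 5 FPKM (1715 of 14429). They numbered 11 with a term for the library set (548 of 23074) and 9 to 36 without 1 library (639 to 2132 genes). With only the 2 groups compared, 5 of the 130 members tested were called, against 598 of 16896 genes. The cause was not tested. Calls of the last step (127 to 131) and of DK against 70-day BDK (112 to 128) stayed within 1.5 times the main count in every setting run. The choice of genes restricted both contrasts, so nothing is read from this. Over all genes tested, 3481 to 6068 and 2993 to 5480 were called lower in these 2 contrasts. Same-numbered replicates showed little common deviation from their group means (r from -0.14 to 0.17 across genes). With 3 libraries per group this cannot exclude a pairing, and the labels give none. With a replicate block 131 genes were called lower in the last step and 123 lower for DK against 70-day BDK (4394 and 3904 of all 23074). In the first step 24 were called and between ripe strains 15 (11593 and 1140 of all 23074). For named genes the fitted last-step change lost its call in 12 of 902 alternative fits, in c37765_g1, c52338_g1 and c56100_g3. It changed sign in 5, all for the uncalled partner c54362_g1, at -0.14 with no scaling factors and -0.11 to 0.22 without 1 library (log2). Between ripe strains c9850_g1 lost its call in 10 fits, and c4024_g1 and c44789_g1 gained one in 4 each. Depth is unknown, so no counting error can be given for levels near 0.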
